A study of Mus musculus with 24 samples.

Results

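Forebrain regional identity was examined here through 9 transcription factor genes: Nkx2-1, Lhx2, Lhx6, Lhx8, Six3, Emx1, Emx2, Otx1 and Zic1. They were chosen by gene symbol, as the probe sets annotated to exactly these genes, and each had 1 probe set, so the group holds 9 of the 28350 probe sets of the arrays and 9 of the 21072 genes tested. The probe sets were 10400474 (Nkx2-1), 10471833 (Lhx2), 10482095 (Lhx6), 10502961 (Lhx8), 10447288 (Six3), 10539584 (Emx1), 10464391 (Emx2), 10384615 (Otx1) and 10595695 (Zic1). No other probe set listed any of them beside further genes.

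The RNA came from cultured neural stem cells of the mouse subventricular zone, the layer along the lateral ventricles in which neurogenesis continues after birth. There were 3 wild-type animals (818, 862 and 870) and 3 labelled Mll1-deleted (489, 814 and 858), and the culture of each was sampled on days 0, 1, 2 and 4. Day 0 is the dividing culture, in medium with serum, EGF and FGF, and the later days follow the change to a medium without them. An array stands for 1 mouse at 1 time, so the 24 arrays form 8 groups with n = 3. All groups were passaged before they were differentiated. The labels used here name neither the Cre driver nor the exons removed, and they give no age or sex of the mice and no part of the ventricle wall that was dissected. The median intensity of an array was between 75.6 and 87.1, and arrays of a group correlated across genes with r between 0.984 and 0.996. Kmt2a, the current symbol of Mll1, was higher in the Mll1-deleted cultures on day 0 (log2 difference 0.48 ± 0.13, adjusted p = 0.0175) and did not pass over the 4 days (0.31 ± 0.10, adjusted p = 0.101). Since the position of its probes relative to the deleted part is not given, it does not check the labels. Mouse 858 stood apart in Xist, the RNA of the inactive X chromosome, with a mean of 20.3 against 540.0 to 963 in the other 5 mice, while 4 Y-linked genes reached at most 21.0 in any mouse. Calls of the 9 genes between the genotypes are therefore given with and without mouse 858.

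The homeobox genes of this group are used in the embryo to divide the forebrain into regions, and many of them stay active in the stem cells of the adult ventricle wall according to where those cells lie. Emx1 and Emx2 mark the dorsal forebrain, Lhx2 is needed for the cortical primordium, and Otx1 belongs to the Otx genes of the anterior head and has later roles in cortex. Six3 patterns the anterior forebrain and the ventral progenitors. Nkx2-1 defines the medial ganglionic eminence and, through Lhx6 and Lhx8, the interneurons and cholinergic neurons that arise from it. Zic1, a zinc finger gene, is used in the septum and the dorsal midline. MLL1 is a histone H3 lysine 4 methyltransferase that keeps genes active through cell divisions, and its CXXC domain binds unmethylated CpG dinucleotides. In other work it has been tied to the maintenance of Nkx2-1 in neural stem cells of the ventral ventricle wall.

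Since CpG dinucleotides are what the CXXC domain binds, the 250 bases before the start of Emx2 and Lhx2, which were lower in the Mll1-deleted cultures as described next, are set beside those of Emx1, the paralogue of Emx2 that did not pass the test. The sequences are those of RefSeq on build GRCm38.p6, in lower case with each CG in capitals, and all 3 are on the forward strand, at chr19:59458440-59458689 for Emx2, chr2:38339031-38339280 for Lhx2 (the start the table lists at the head of 2) and chr6:85187681-85187930 for Emx1.
Emx2: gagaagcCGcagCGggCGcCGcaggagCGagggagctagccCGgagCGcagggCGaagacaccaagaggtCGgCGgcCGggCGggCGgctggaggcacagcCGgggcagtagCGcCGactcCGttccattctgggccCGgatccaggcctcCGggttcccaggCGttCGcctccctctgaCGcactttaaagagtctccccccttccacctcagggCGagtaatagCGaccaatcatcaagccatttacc
Lhx2: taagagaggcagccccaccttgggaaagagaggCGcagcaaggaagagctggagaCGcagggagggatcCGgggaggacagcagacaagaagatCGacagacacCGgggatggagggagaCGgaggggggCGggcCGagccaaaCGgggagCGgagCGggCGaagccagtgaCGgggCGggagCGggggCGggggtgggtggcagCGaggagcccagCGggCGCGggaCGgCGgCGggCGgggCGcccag
Emx1: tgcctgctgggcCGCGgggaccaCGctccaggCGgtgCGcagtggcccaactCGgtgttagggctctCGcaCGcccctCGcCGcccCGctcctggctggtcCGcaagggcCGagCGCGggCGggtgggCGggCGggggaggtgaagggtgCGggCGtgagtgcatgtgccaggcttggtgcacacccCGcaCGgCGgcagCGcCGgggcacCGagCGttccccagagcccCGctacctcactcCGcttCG
The motif searched was CG, which reads the same on both strands. Emx2 had 24 of them, Lhx2 25 and Emx1 30. Of the 9 genes 8 matched an entry, all but Otx1, and the others had 27 (Zic1), 14 (Lhx6), 10 (Six3), 9 (Nkx2-1) and 4 (Lhx8). Over 32841 RefSeq windows of this length the median was 6, and 92.1% held at least 1. As many as in Lhx2 were held by 10.7% of windows and as many as in Emx1 by 5.94%. The genes called lower over the 4 days thus had 24 (Emx2), 25 (Lhx2) and 27 (Zic1). Those not called had 30 (Emx1), 14 (Lhx6), 10 (Six3), 9 (Nkx2-1) and 4 (Lhx8). Whether the number of CG goes with the calls was not tested. These counts describe the letters and not any binding, which was not measured.

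The level of each gene on the array, given as linear intensity, was read against the dim end of the scale, since some of these genes were near it. No group mean of any of the 9 genes was below the lower quartile of its arrays (23.3 to 28.3 over all arrays). As another mark, 1007 probe sets annotated to olfactory receptors, which are used in the nose, had a median of 11.4 and a 95th percentile of 41.1 over all arrays. The 95th percentile of a group's own arrays, from 38.1 to 44.6, was the mark its mean was read against. The group means of Lhx8 stayed below their group's mark in 8 of 8 groups, with values from 29.4 to 42.8 on the 24 arrays. Those of Nkx2-1 were above it in 8 of 8 groups (36.8 to 66.4 over all arrays), and 3.87% of the olfactory receptor probe sets were brighter. Those of Zic1 were above it in 4 of 4 wild-type groups and in 2 of 4 Mll1-deleted groups (29.0 to 95.4 over all arrays), and of the Mll1-deleted means (40.9, 36.5, 39.7 and 42.7 on days 0, 1, 2 and 4) only that of day 4 exceeded 41.1. How much of the signal of these 3 genes comes from other RNA at such intensities was not tested, and neither was it for the brighter genes of the 9. The group means of the other genes were above the mark in 8 of 8 groups. Lhx2 ranged from 323 to 838, Otx1 from 113 to 221, Six3 from 115 to 184, Emx2 from 50.4 to 232, Emx1 from 82.9 to 159 and Lhx6 from 54.1 to 163.

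**Figure D1:**
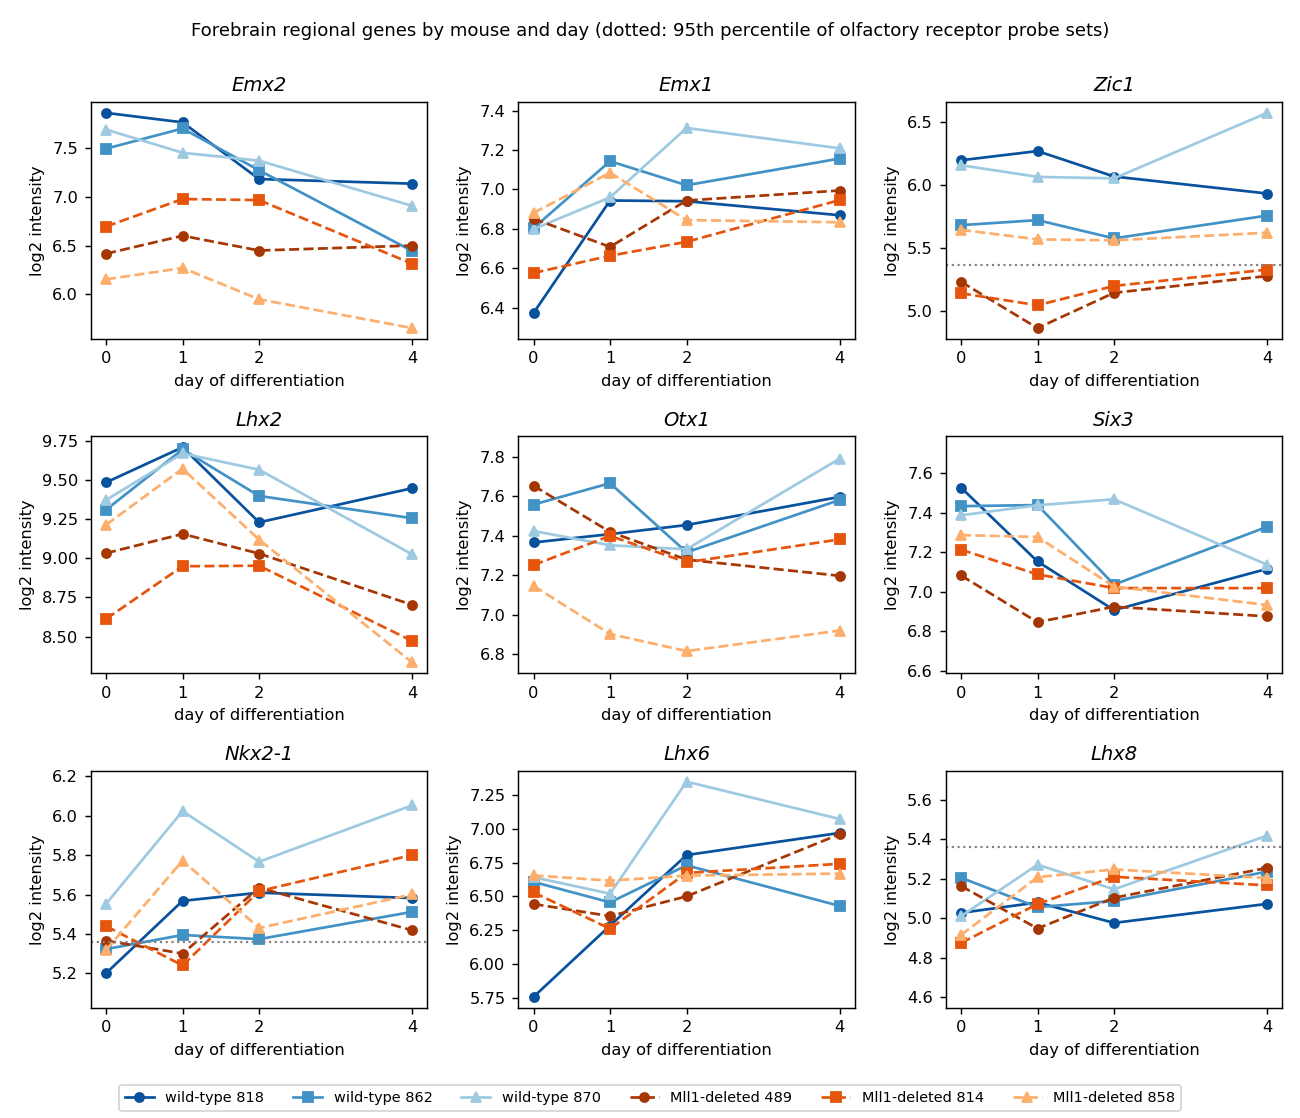
Log2 intensity (vertical axis, its range differing between panels) of the 9 genes by day of differentiation (horizontal axis), 1 line per mouse, wild-type solid and Mll1-deleted dashed. Lhx2 and Zic1 of the Mll1-deleted mice lie below those of the wild-type mice on all 4 days, Emx2 on days 0, 1 and 2, and the dotted line marks 41.1 on the linear scale, the 95th percentile of olfactory receptor probe sets.

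Whether Mll1 deletion went with a different regional identity was asked by comparing the genotypes on each day, with the mouse as a random effect, and over the means of the 4 days of each mouse. The threshold for a call was an adjusted p below 0.05 in limma (Benjamini-Hochberg over all 21072 genes, two-sided), differences are log2 of Mll1-deleted over wild-type intensity with ± their standard error, and n = 3 mice per genotype. Emx2, Zic1 and Lhx2 were lower in the Mll1-deleted cultures over the 4 days, which makes 3 of 9 called lower, where 3.71% of all genes were. Of the 9 genes 2 were called lower on day 0 (4.71% of all genes), 2 on day 1 (3.84%), 1 on day 2 (4.73%) and 3 on day 4 (2.73%). Called higher in limma were 0 of 9 on each of these days, with 0 higher at an unadjusted p under 0.05, where 5.41%, 3.61%, 4.01% and 3.73% of all genes were. The means of the 4 days were lower in every Mll1-deleted mouse than in every wild-type mouse for 5 of 9 genes (Lhx2, Six3, Emx2, Otx1 and Zic1), which held for 14% of all genes. The median difference of the 9 over the 4 days was -0.23, and that of all genes was -0.02. Of the dorsal pair Emx2 was lower and Emx1 did not pass the test, and the ventral genes Nkx2-1, Lhx6 and Lhx8 did not pass it on any day. Array values come from whole cultures, so fewer cells that express a gene and less RNA per cell cannot be told apart.

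**Figure D2:**
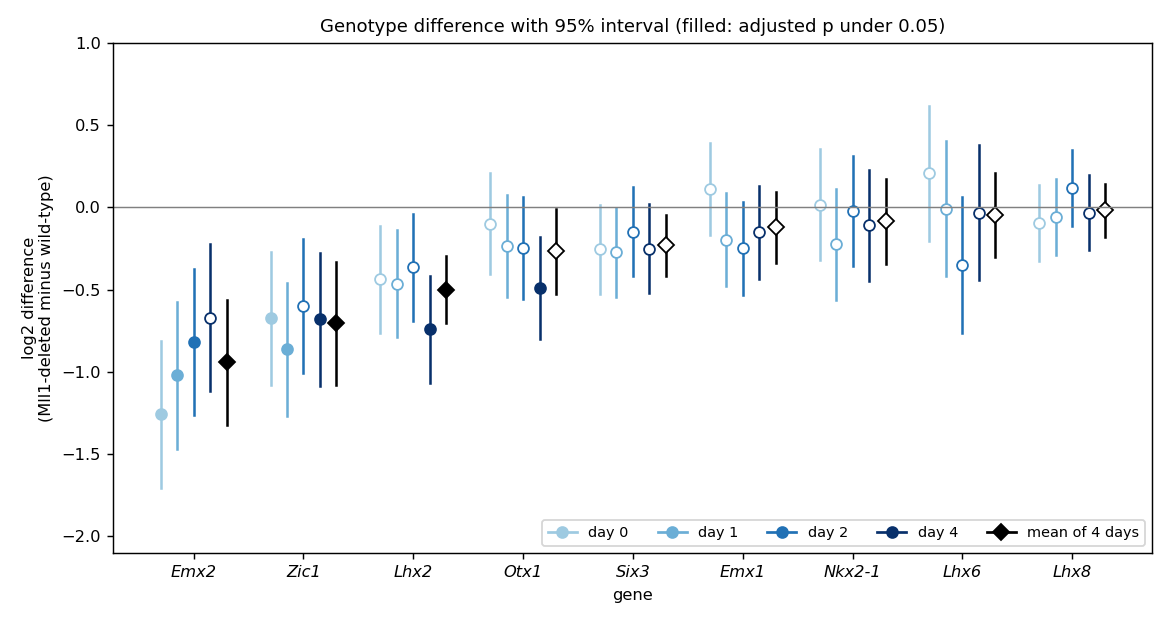
Log2 difference of Mll1-deleted minus wild-type cultures (vertical axis) for each gene (horizontal axis) on days 0, 1, 2 and 4 (circles) and over the mean of the 4 days (diamonds), with 95% intervals and filled symbols at an adjusted p under 0.05. Emx2 has the lowest value of the 9 genes, at -1.26 on day 0. No value of Nkx2-1, Lhx6 or Lhx8 passed, and their 4-day values lie around 0, with Lhx6 at -0.35 on day 2.

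Emx2, a dorsal forebrain homeobox gene that also regulates the division of adult neural stem cells, had the largest of the 9 differences between the genotypes over the 4 days. On day 0 its intensity was 232, 180.1 and 206 in wild-type mice 818, 862 and 870, and 85.5, 104 and 71.2 in Mll1-deleted mice 489, 814 and 858. On day 1 it was 217, 208 and 175 in wild-type and 97.1, 126 and 77.2 in Mll1-deleted cultures, in the same order of mice. On day 2 the values were 145, 154 and 165 against 87.4, 125 and 61.8. On these 3 days every Mll1-deleted array was below every wild-type array, as was so for 14.4%, 11.3% and 15.3% of all genes. On day 4 it was 141, 87.1 and 120.0 in wild-type and 90.6, 79.6 and 50.4 in Mll1-deleted cultures, so that wild-type mouse 862 came below Mll1-deleted mouse 489 and the groups overlapped. The difference was -1.26 ± 0.22 on day 0 (adjusted p = 0.000337), which is 2.39-fold lower. It was -1.02 ± 0.22 on day 1 (adjusted p = 0.00351) and -0.82 ± 0.22 on day 2 (adjusted p = 0.0174), and it did not pass on day 4 (-0.67 ± 0.22, adjusted p = 0.0662). Over the 4 days it was -0.94 ± 0.17 (adjusted p = 0.0126, 1.92-fold lower). Without mouse 858 this was -0.74 (adjusted p = 0.00252), and the call was lost without wild-type mouse 818 (adjusted p = 0.0576) or 870 (adjusted p = 0.061). The calls of days 0 and 1 held under all 15 alternatives, and without mouse 858 they were -1.12 and -0.85. The call of day 2 was lost without 489, 818, 858 or 870, and the value was -0.57 without 858.

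The difference of Emx2 between the genotypes went from -1.26 on day 0 to -0.67 on day 4, and Emx2 fell with day in wild-type cultures. Wild-type cultures went from 206 ± 26.1 (SD, n = 3) on day 0 to 116 ± 26.9 on day 4, a change of -0.85 ± 0.24 (adjusted p = 0.00645). In the 3 wild-type mice the change was from -1.05 to -0.72. Mll1-deleted cultures had 86.8 ± 16.2 on day 0 and 73.5 ± 20.8 on day 4 (-0.27 ± 0.24, adjusted p = 0.437), with 2 mice lower and 1 higher than on day 0. Tested as an interaction, the change to day 4 was not shown to differ between the genotypes (0.59 ± 0.34, 95% interval -0.11 to 1.28, adjusted p = 0.377). The wild-type call was lost without mouse 862 (-0.75, adjusted p = 0.0673).

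Zic1, the zinc finger gene of the septum and dorsal midline, was lower in Mll1-deleted cultures on days 0, 1 and 4 and over all days, at intensities close to the dim end. On day 0 it was 73.4, 51.3 and 71.5 in wild-type mice 818, 862 and 870, and 37.5, 35.2 and 50.0 in mice 489, 814 and 858. On day 1 it was 77.3, 52.8 and 67.0 against 29.0, 33.0 and 47.4, in the same order. The groups did not overlap on these days, as was so for 14.4% and 11.3% of all genes in this direction. Wild-type mouse 862 and Mll1-deleted mouse 858 were the closest to each other. On day 2 Zic1 was 67.1, 47.7 and 66.4 against 35.3, 36.7 and 47.2. On day 4 it was 61.1, 54.1 and 95.4 against 38.7, 40.1 and 49.2. Every Mll1-deleted array was therefore below every wild-type array of its day on all 4 days, which held for Zic1 and Lhx2 of the 9 genes and for 0.949% of all genes. The difference was -0.68 ± 0.20 on day 0 (adjusted p = 0.0269), -0.86 ± 0.20 on day 1 (adjusted p = 0.00639) and -0.68 ± 0.20 on day 4 (adjusted p = 0.0369). It was -0.60 ± 0.20 on day 2, which did not pass (adjusted p = 0.0591). Over the 4 days it was -0.70 ± 0.16 (adjusted p = 0.036) and -0.85 without mouse 858 (adjusted p = 0.00532). The 4-day call was lost without 489, 814, 818 or 870 (adjusted p from 0.110 to 0.145) and on the log2(value + 16) scale (-0.53, adjusted p = 0.069), which weighs dim values less. Without mouse 858 the days' values were -0.83, -1.07, -0.73 and -0.79, and day 2 also passed (adjusted p = 0.019). The call of day 1 was lost without 489, 814 or 818, and those of days 0 and 4 without any of these or 870. With only the compared arrays fitted, the calls of days 0, 1 and 4 were lost (adjusted p = 0.0607, 0.0521 and 0.111). Without the random mouse effect those of days 0 and 4 were lost (adjusted p = 0.0568 and 0.0729). Zic1 passed no test for a change with day: the F test over the days gave an adjusted p of 0.889 in wild-type and 0.793 in Mll1-deleted cultures. This F test did not pair the days of a mouse, so lasting differences between mice counted as spread in it. With the mouse as a fixed effect Zic1 passed on no day either. These results do not show that Zic1 stayed level.

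Lhx2, a LIM homeobox gene that specifies the cortical primordium and is kept in neural progenitors, was lower in Mll1-deleted cultures over the 4 days and on day 4. On day 0 it was 717, 635 and 663 in mice 818, 862 and 870, and 524, 391 and 594 in mice 489, 814 and 858. On day 1 it was 838, 829.7 and 815 against 570.4, 494 and 762. The groups did not overlap on either day, as was so for 14.4% and 11.3% of all genes in this direction. Mll1-deleted mouse 858 was the closest to wild-type. On day 2 Lhx2 was 601, 675 and 758 against 523, 496 and 556. On day 4 it was 699, 612 and 521 against 417, 355 and 323, and mouse 858, the highest of its group on days 0, 1 and 2, was now the lowest. The difference was -0.50 ± 0.09 over the 4 days (adjusted p = 0.0128, 1.42-fold lower) and -0.74 ± 0.16 on day 4 (adjusted p = 0.0045). On days 0, 1 and 2 it was -0.44 ± 0.16 (adjusted p = 0.0871), -0.47 ± 0.16 (adjusted p = 0.077) and -0.36 ± 0.16 (adjusted p = 0.174), which did not pass. Without mouse 858 the 4-day value was -0.57 (adjusted p = 0.00411), and day 0 (-0.57, adjusted p = 0.0102) and day 1 (-0.64, adjusted p = 0.00477) passed. The day 4 call held under all 15 alternatives (-0.66 without 858), and the 4-day call was lost without 818, 862 or 870 (adjusted p from 0.0510 to 0.0538).

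Lhx2 was also the 1 gene of the 9 that was called as changing with day in the Mll1-deleted cultures. Its mean intensity there started at 503 ± 103 (SD, n = 3), was 609 ± 138 after 1 day and 525 ± 30.4 after 2, and ended at 365 ± 47.7. The F test over the days gave Lhx2 an adjusted p of 0.00543 in these cultures, where 35.8% of all genes passed. Without mouse 858 the adjusted p of Lhx2 in this test was 0.1004, and 30.4% of all genes passed. In wild-type cultures 3 of 9 genes passed the F test (Emx1, Emx2 and Lhx6), against 44.1% of all genes, but 1 without 489, 814 or 862 and 0 without 818 or 870. From day 0 to day 4 the log2 change of Lhx2 in Mll1-deleted cultures was -0.45 ± 0.16 (adjusted p = 0.0331), where 15.7% of all genes were called lower. Mouse 489 changed by -0.33, mouse 814 by -0.14 and mouse 858 by -0.88, and without mouse 858 the call was lost (-0.24, adjusted p = 0.317), as it was without 489 or 862. In wild-type cultures Lhx2 went from 671 ± 41.6 on day 0 to 610.4 ± 88.8 on day 4 (-0.15 ± 0.16, adjusted p = 0.503). The change to day 4 was not shown to differ between the genotypes (-0.30 ± 0.22, 95% interval -0.76 to 0.15, adjusted p = 0.521).

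Otx1, an Otx homeobox gene with roles in cortex, passed the genotype test on day 4 only by a narrow margin. Its values on day 4 were 194, 191 and 221 in mice 818, 862 and 870, and 147, 167 and 121 in mice 489, 814 and 858. The groups did not overlap, as was so for 8.77% of all genes in this direction. The difference was -0.49 ± 0.15 (adjusted p = 0.04997), it was lost in 9 of 15 alternatives, leaving out any mouse but 814 among them, and without mouse 858 it was -0.37 (adjusted p = 0.121). On day 0 the values were 165, 188 and 172 against 201, 152 and 142, and mouse 489 was the highest of the 6. Over the 4 days the difference was -0.27 ± 0.11 (adjusted p = 0.223). Mouse 858 was the lowest of the Mll1-deleted mice on all 4 days, and without it the 4-day value was -0.13.

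Six3, a homeobox gene of the anterior forebrain and of ventral progenitors, had lower mean intensities in Mll1-deleted cultures on each day without passing the test on any. On day 0 it was 184, 173 and 167 in wild-type mice 818, 862 and 870 and 135, 148 and 156 in mice 489, 814 and 858. On day 4 it was 139, 161 and 141 against 117, 129.6 and 122, and on these days the groups did not overlap, as for 14.4% and 8.77% of all genes. Over the 4 days the difference was -0.23 ± 0.08 (95% interval -0.42 to -0.04, adjusted p = 0.145), and -0.27 without mouse 858 (adjusted p = 0.0944). Six3os1, a non-coding RNA gene transcribed beside Six3 in the opposite direction, had another course. Its intensity on day 0 was 356, 257 and 237 in wild-type and 131, 179.6 and 148 in Mll1-deleted cultures (-0.88 ± 0.18, adjusted p = 0.00185), without overlap, as for 14.4% of all genes. In wild-type cultures it fell to a mean of 124 by day 1 (-1.17 ± 0.18, adjusted p = 3.31e-05), while Six3 itself had -0.11 ± 0.13 (adjusted p = 0.638). On later days the genotypes no longer differed in Six3os1 past the test, with -0.27 on day 4 (adjusted p = 0.465). Whether the probes of the pair are read from separate strands is not given in the sources used here.

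Emx1, the paralogue of Emx2 in the dorsal forebrain, was not called between the genotypes on any day. On day 0 it was 82.9, 112 and 111 in wild-type mice 818, 862 and 870, and 115, 95.5 and 118 in mice 489, 814 and 858, and on day 4 117, 143 and 148 against 128, 123 and 114. The groups overlapped on all 4 days, and the 4-day difference was -0.12 ± 0.09 (95% interval -0.34 to 0.09, adjusted p = 0.54), against -1.32 to -0.56 for Emx2. Emx1 rose with day in wild-type cultures, by 0.43 ± 0.14 on day 2 (adjusted p = 0.0203) and 0.42 ± 0.14 on day 4 (adjusted p = 0.0219), in 3 of 3 mice on both days. In the main fit Emx1 was thus called higher and Emx2 lower on day 4 in the same wild-type cultures, though the Emx1 call did not hold throughout. In Mll1-deleted cultures Emx1 had 0.16 ± 0.14 on day 4 (adjusted p = 0.445), and the interaction did not pass (-0.26 ± 0.20, adjusted p = 0.542). The wild-type calls of Emx1 were lost when the arrays were shifted to a common median (0.33, adjusted p = 0.0756, and 0.32, adjusted p = 0.0778). They were also lost without 818 or 870 on both days and without 862 on day 4. Repeated quantile normalisation lost the call of day 2 (0.37, adjusted p = 0.0563). Fitting only the compared arrays lost that of day 4 (adjusted p = 0.0537).

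None of the ventral genes passed between the genotypes, and Nkx2-1 and Lhx8 were at the dim end of the scale. Nkx2-1, the regulator of the medial ganglionic eminence, was 36.8, 40.0 and 46.9 in wild-type mice 818, 862 and 870 and 41.3, 43.4 and 39.9 in mice 489, 814 and 858 on day 0, and 47.9, 45.6 and 66.4 against 42.8, 55.7 and 48.5 on day 4. Its difference over the 4 days was -0.08 ± 0.11 (95% interval -0.34 to 0.17, adjusted p = 0.751). The groups overlapped on all 4 days, and a p that misses the threshold at these intensities does not show equal levels. Lhx8, a LIM homeobox gene of cholinergic neurons, had -0.02 ± 0.07 (-0.18 to 0.14, adjusted p = 0.928). The summed intensity of 6 measured markers of cholinergic neurons lay between 258 and 346 on all arrays, with 0 of 6 called over the 4 days and 0 at an unadjusted p under 0.05, and 1 to 2 of them were below the lower quartile of their arrays.

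Lhx6, a LIM homeobox gene of interneurons from the medial ganglionic eminence, had -0.05 ± 0.11 between the genotypes over the 4 days (-0.30 to 0.21, adjusted p = 0.874). In wild-type cultures it rose from 54.1, 97.5 and 99.9 on day 0 to 112, 106 and 163 on day 2 in mice 818, 862 and 870 (0.62 ± 0.20, adjusted p = 0.0181). Mouse 818 rose from the lowest start, by 1.05, mouse 870 by 0.70 and mouse 862 by 0.12. The call was lost without 818 (0.41, adjusted p = 0.153) or 870. In Mll1-deleted cultures Lhx6 was 87.1, 92.4 and 101 on day 0 and 90.6, 102 and 101 on day 2 (0.07 ± 0.20, adjusted p = 0.868). Every Mll1-deleted array was thus below every wild-type array on day 2, as for 15.3% of all genes. The genotype difference of that day did not pass (-0.35 ± 0.20, adjusted p = 0.339). The interaction on day 2 was -0.56 ± 0.28 (95% interval -1.14 to 0.03, adjusted p = 0.325).

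The changes from day 0 are given for the 9 genes beside the share of all genes that passed. In wild-type cultures 0 of 9 passed in limma on day 1, with 1 (Emx1) at an unadjusted p under 0.05, where 25.5% of all genes passed. On day 2 it was 2 of 9 (Emx1 and Lhx6, both higher), where 33.7% passed, and on day 4 again 2 of 9 (Emx1 higher and Emx2 lower), where 37.5% passed. In Mll1-deleted cultures 0 of 9 passed on days 1 and 2, with 0 at an unadjusted p under 0.05, where 12.4% and 23.3% of all genes did, and 1 (Lhx2) on day 4, where 29.6% did. With the mouse as a fixed effect, a block that pairs the days of each animal, 1 of 9 passed in wild-type cultures on day 1 (Emx1), 4 on day 2 (Emx2 and Six3 added) and 4 on day 4 (Lhx6 and Nkx2-1 added), where 29.6%, 38.2% and 42.5% of all genes passed in that fit. The interaction test was passed by 0 of 9 genes on any day, with 0 at an unadjusted p under 0.05, where 2.43%, 4.8% and 5.83% of all genes passed in limma.

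**Figure D3:**
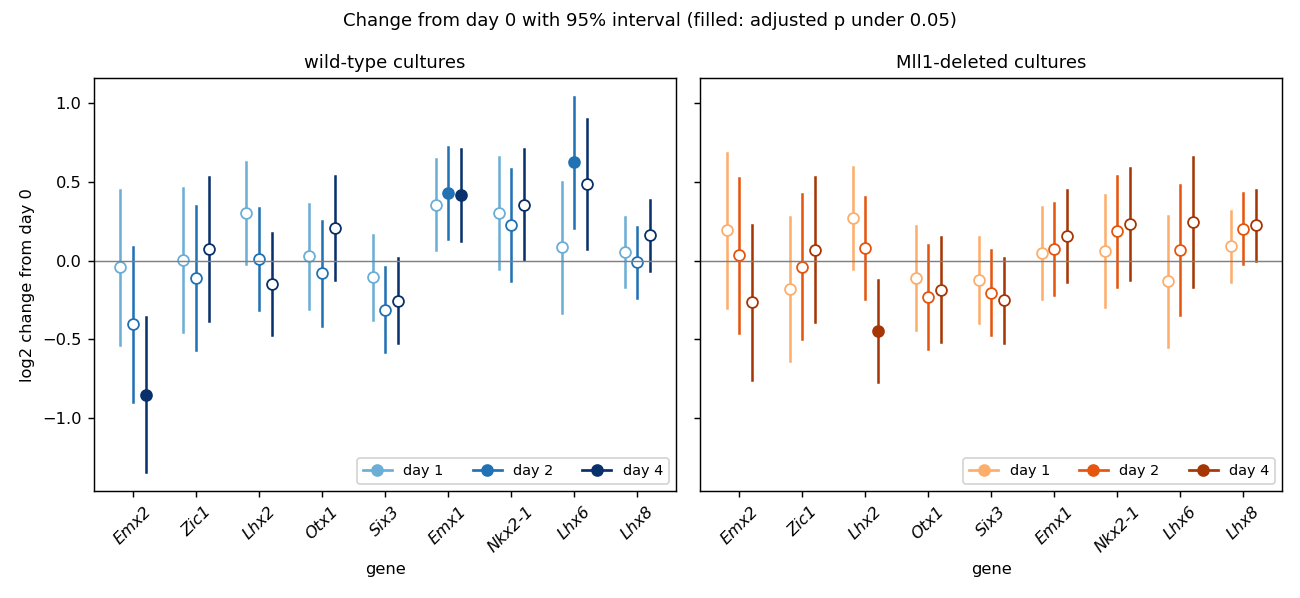
Log2 change from day 0 (vertical axis) of each gene (horizontal axis) on days 1, 2 and 4 in wild-type (left) and Mll1-deleted (right) cultures, with 95% intervals and filled symbols at an adjusted p under 0.05. Emx2 fell by day 4 and Emx1 rose by days 2 and 4 in wild-type cultures, and Lhx2 fell by day 4 in Mll1-deleted cultures.

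Differences between mice of a group lasted through the days for several of these genes. After the group means were taken out, 81.7% of the remaining variance of Zic1 lay between mice, a share that 1.29% of all genes reached, and the median gene had 36.6%. For Emx2 the share was 73.1% (reached by 4.43% of genes), and for Otx1 69.2% (6.81%). Wild-type mouse 862 had the lowest Zic1 of its group on all 4 days, and Mll1-deleted mouse 858 the highest of its own. The same mouse 858 had the lowest Emx2 and the lowest Otx1 of the Mll1-deleted mice on all 4 days. The geometric mean of Zic1 over the 4 days was 69.5, 51.4 and 74.2 in mice 818, 862 and 870, and 34.9, 36.2 and 48.4 in mice 489, 814 and 858. For Emx2 it was 179, 149.8 and 164 against 90.0, 107 and 64.4, and for Lhx2 708, 683 and 679.7 against 505, 429 and 534. The Mll1-deleted mouse with the lowest Emx2 was thus the one with the highest Zic1 and Lhx2. Mouse 870 had the highest Nkx2-1 and the highest Lhx6 of the wild-type mice on all 4 days. Whether the mice were dissected at the same level of the ventricle is not given, and its part in these differences was not tested.

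Other genes of the 6 families showed differences between paralogues. Over the 4 days 1 of 2 Emx genes was lower, 1 of 3 Otx and Crx genes, 1 of 8 Lhx genes and 1 of 4 Zic genes, 0 of 6 Nkx2 genes passed, and 1 of the 5 genes Six2 to Six6 was higher, where 3.71% of all genes were lower and 3.59% higher. The counts include the 9 genes, and the lower Emx, Lhx and Zic genes are Emx2, Lhx2 and Zic1 among them. The lower Otx gene was Otx2, at -0.77 ± 0.17 (adjusted p = 0.0318), a gene of the choroid plexus and the midbrain, while Otx1 did not pass. Of Six2 to Six6 the higher one was Six4, at 1.17 ± 0.18 (adjusted p = 0.00725), and it passed on all 4 days, while Six3 did not. Of the Zic genes, Zic2, Zic4 and Zic5 did not pass over the 4 days. Zic4, the neighbour of Zic1 in the opposite orientation, was lower on day 1 (-0.55 ± 0.11, adjusted p = 0.00238), with 38.6, 36.2 and 36.4 in wild-type and 24.6, 23.6 and 27.8 in Mll1-deleted mice, at the dim end of the scale. Nkx2-2, a ventral gene of the Nkx2 family, was lower on day 0 (-1.23 ± 0.20, adjusted p = 0.000197), and its change to day 4 differed between the genotypes (1.67 ± 0.29, adjusted p = 0.00117). The neighbours Six2 (next to Six3) and Nkx2-9 (next to Nkx2-1) passed in no genotype comparison, with 4-day values of -0.21 ± 0.10 and -0.09 ± 0.11.

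**Figure D4:**
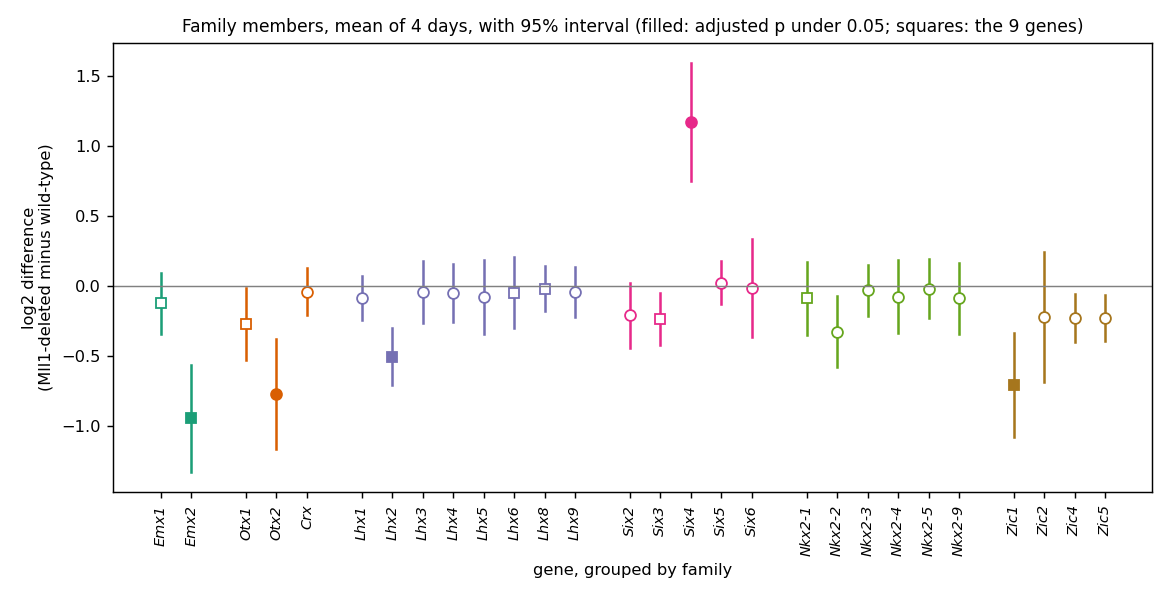
Log2 difference of Mll1-deleted minus wild-type cultures over the mean of the 4 days (vertical axis) for genes of the Emx, Otx, Lhx, Six2 to Six6, Nkx2 and Zic families (horizontal axis, 1 colour per family), with 95% intervals, filled symbols at an adjusted p under 0.05 and squares for the 9 genes. Emx2, Otx2, Lhx2 and Zic1 were lower, Six4 was higher, and the other genes shown did not pass.

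Further regional genes, from lists assembled with earlier results known, were counted over the 4 days, where 3.71% of all genes were lower and 3.59% higher. Of 20 measured ventral genes 5 were lower and 1 higher. The lower ones included Sp8 (-0.95, adjusted p = 0.00351) and Vax1 (-0.92, adjusted p = 0.00872), factors of ventral progenitors and newborn interneurons, and the higher one was Nkx6-2 (0.91, adjusted p = 0.00947). Sall3 was lower on day 0 (-0.78, adjusted p = 0.00196) and Lmo4 higher on day 1 (0.75, adjusted p = 7.08e-06). Of 21 dorsal genes 3 were lower and 0 higher. These were Pax6 (-0.94, adjusted p = 0.000815), Fezf2 (-0.79, adjusted p = 0.00478) and Wnt7b (-0.38, adjusted p = 0.0425). Nr2f2 was higher on day 4 (0.54, adjusted p = 0.0278). Of 13 septal and other Zic genes 0 passed in limma over the 4 days (3 lower and 2 higher at an unadjusted p under 0.05), while Etv5 was higher on day 1 (1.00, adjusted p = 0.00693) and Hesx1, at a mean intensity of 14.8, was lower on day 1. Of 19 cofactors of LIM homeodomain and Six3-related proteins 1 was lower and 5 higher, with Lmo1, which competes with LIM homeodomain proteins for their partner Ldb1, at 1.50 (adjusted p = 0.00698). Tle4 (0.66), Tle1 (0.46) and Ssbp3 (0.34) were also higher, and Lmo3 was lower on day 1 (-1.54, adjusted p = 0.0042). Of 17 genes of the caudal brain 0 were lower and 1 higher (Irx3, 0.44, adjusted p = 0.0425), and Irx5 was higher on day 2 (0.55, adjusted p = 0.00321).

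Markers of several cell types also differed between the genotypes, by amounts and in directions that depended on the day. The summed intensity of 13 neuroblast markers on day 2 was 11246 to 15981 in wild-type and 2559 to 6042 in Mll1-deleted arrays. Of the 13, 10 were called lower over the 4 days, where 3.71% of all genes were. On day 0 Stmn2 (log2 difference 2.72) and Tubb3 (1.34) were called higher (5.41% of all genes) and 2 others lower (4.71%). Stmn2 was also higher on day 1 (1.90). Oligodendrocyte lineage markers went the other way after day 0. Their sum over 12 genes was 6183 to 6386 in wild-type and 3691 to 5926 in Mll1-deleted arrays on day 0. On day 4 it was 2765 to 3250 against 6811 to 12670, when 9 of 12 were called higher (3.73% of all genes). Of the 12, 4 were higher over the 4 days (Olig1, Olig2, Pdgfra and Ugt8a), where 3.59% of all genes were. The sum of 9 astrocyte markers was 25744 to 29208 against 12711 to 25512 on day 0, with 4 of 9 called lower (4.71% of all genes). On day 4 it was 32023 to 41875 against 37547 to 44741, with 1 lower (2.73% of all genes) and 1 higher (3.73%). For 9 ependymal markers the sum was 1317 to 1557 against 671 to 1099 on day 2, with 5 of 9 called lower (4.73% of all genes). For 12 markers of interneurons from the medial ganglionic eminence, the cells that use Lhx6, it was 2476 to 3014 against 2659 to 3741 on day 0 and 7258 to 7743 against 5812 to 6527 on day 4, with 2 of 12 lower and 2 higher over the 4 days. For 11 neural stem cell markers it was 38121 to 41018 against 32060 to 36884 on day 0 and 27252 to 32678 against 28624 to 33499 on day 4, with 3 of 11 called higher over the 4 days. The sum of 14 markers of meningeal fibroblasts and pericytes, cells which also express Zic1, was 1059 to 1166 against 1528 to 5286 on day 0. Of the 14, 3 were called higher on day 0 (5.41% of all genes) and 1 lower (4.71%). On day 4 the sum was 1234 to 1354 against 1127 to 2129, with 1 called lower (2.73% of all genes). The sum of 6 choroid plexus markers was 343 to 446 against 289.8 to 357 on day 0, and 557 to 667 against 371 to 391 on day 4, with 2 of 6 called lower over the 4 days, Otx2 among them. The scale holds no zeros, and 4 to 5 of the 14 meningeal and 1 to 3 of the 6 choroid plexus markers were below the lower quartile of their arrays. The part of these cell types in the differences of the 9 genes was not tested.

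As a description, the genes whose log2 intensities followed each of the 9 most closely over the 24 arrays were found among 16645 genes above the lower quartile of the arrays. The arrays share mice, days and genotypes, so these values carry no p. Lhx2 was followed by Paqr8 (r = 0.915), Nr2e1 (0.884), a nuclear receptor of neural stem cells, and Grk3 (0.871). Emx2 was followed by Cd276 (0.892), Zc3hav1 (0.873) and Cbs (0.863). Zic1 was followed by Otx2 (0.848), Selenbp2 (0.843) and Mdk-ps1 (0.822). Six3 was followed by Sfxn1 (0.777), Zfp385a (0.776) and Cln6 (0.772), and Otx1 by Cxcl14 (0.751), Cbr3 (0.746) and Slc35f3 (0.741). Lhx6 was followed by Spr-ps1 (0.884), the olfactory receptor gene Olfr1347 (0.880) and Kcnk4 (0.860), and Emx1 by Il21r (0.874), Dock6 (0.864) and the fibrinogen gene Fgb (0.848). Lhx8 was followed by Il17rb (0.839), Gm7854 (0.814) and Tarm1 (0.811), and Nkx2-1 by Dbx1 (0.830), Slc35g3 (0.789) and Rgs9bp (0.770). Among the 9 genes themselves, Emx2 and Lhx2 had r = 0.68 over the arrays and -0.20 after the group means were removed, and Emx2 and Otx1 had 0.55 and 0.55. Lhx6 and Emx1 had 0.66 and 0.60.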

How the data were processed

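RNA of 24 cultures was measured on Affymetrix arrays. The deposited table holds 1 intensity per probe set and array, made by the authors with RMA in Affymetrix Power Tools on build mm9, per the submitters' processing notes. Their range, 3.48 to 30298, shows a linear scale, and log2 was taken here. Of 28350 probe sets, 22232 had 1 symbol, 2980 several and 3138 none. Old symbols were updated through RefSeq for 2127 probe sets, 702 genes had a symbol not found there, and 21072 genes were tested, each by its probe set with the highest mean.

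Tests used limma 3.58.1 in R 4.3.3 with Benjamini-Hochberg adjustment. Changes with day and interactions were fitted over 8 group means without a block, the genotypes of each day with a random mouse effect (intra-mouse correlation 0.165), and the 4-day comparison over 6 mouse means. This 1 correlation was used for all genes. Zic1, Emx2 and Otx1 had a larger share of variance between mice than the median gene, so the p of single days may be too small for them. The mouse number of the labels pairs the days. Deviations from the group means correlated with a median r of 0.216 (wild-type) and 0.310 (Mll1-deleted) within a mouse and of -0.123 and -0.143 between mice. Alternatives were another log offset, 2 rescalings, 3 probe set filters, another variance model, the mouse as a block or without it, fewer arrays, and each mouse left out. The number of arrays limits the precision. No batch is given by the labels.

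The genes, the related lists and the tests were chosen with earlier results of these data known, and the olfactory receptor reference after seeing values. All 9 genes are named, as are their neighbours, the passing genes of related lists (at most 6 by p) and the 3 genes closest to each by correlation, except for some genes that are not reported here.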

Additional observations from a re-analysis of the deposited data

How the results depend on the processing

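Over 16 alternatives 1872 values of the 9 genes were recomputed, of which 57 lost a call, 16 gained one and 0 called values changed sign. Of the 1622 values that did not pass, 83 changed sign. Emx2 on days 0 and 1 and Lhx2 on day 4 kept their genotype call in 15 of 15 alternatives.

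With the mouse as a fixed effect (replicate block), the count of the 9 genes called in wild-type cultures went from 0 to 1 on day 1, from 2 to 4 on day 2 and from 2 to 4 on day 4, and 0 passed any interaction. The counts of the 9 genes for Mll1-deleted changes from day 0 stayed the same with the block. The F tests and the genotype comparisons were not fitted with it. Quantile normalisation repeated gave 1 on day 2 and 1 in the F test over days (in place of 3) in wild-type cultures, and 0 (in place of 1) on day 4 in Mll1-deleted cultures. Fits on the compared arrays alone gave 1 for wild-type day 4, 0 for Mll1-deleted day 4, and 1 each for the genotypes on days 0, 1 and 4, with fewer arrays behind the spread. Without the random effect of the mouse 1 passed on day 0 and 1 on day 4. The filter on dim probe sets gave 2 on day 2.

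With 1 mouse left out, the counts ranged from 1 to 3 on day 0, 1 to 3 on day 1, 0 to 2 on day 2, 1 to 2 on day 4 and 0 to 3 over the 4 days between the genotypes. They ranged from 0 to 2 on day 2 and 1 to 2 on day 4 in wild-type cultures, from 0 to 1 for Mll1-deleted cultures on day 4, and for the F test from 0 to 4 (wild-type) and 0 to 1 (Mll1-deleted). Over all genes, 1539 passed between the genotypes over the 4 days, 668 without mouse 870 and 2592 without mouse 858. On single days the counts over all genes were 2132 (day 0, at lowest 1181 with an alternative), 1570 (day 1, 809 to 2758), 1842 (day 2, at lowest 911) and 1361 (day 4, at lowest 675). For the interactions they were 513, 1012 and 1229, 1031, 1860 and 2148 with the block, 1451, 1690 and 2014 without mouse 858, and at lowest 159 (without 870), 390 and 421 (both without 489). For changes from day 0 they went from 5363 to 3554 at lowest on day 1 in wild-type cultures, and from 2610, 4916 and 6231 to 679, 3217 and 4024 at lowest on days 1, 2 and 4 for Mll1-deleted cultures. Why these values moved was not tested. Shifting the arrays to 1 median moved them by -0.07 to 0.06 on the log2 scale, and with it Six3 passed as lower in wild-type cultures on day 2 (-0.42, adjusted p = 0.0146) and day 4 (-0.35, adjusted p = 0.0346). With 3 mice a genotype, and with Lhx8, Nkx2-1 and Zic1 close to the dim end, differences smaller than their intervals could not be detected.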
